A study of Mus musculus with 6 samples.

Results

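The genes described here are 10 markers of the choroid plexus epithelium, Ttr, Enpp2, F5, Aqp1, Slc4a5, Clic6, Folr1, Prlr, Kl and Otx2, taken by symbol from a table of 21937 genes. All 10 symbols were present, and all 10 lay above the lowest mean level of the table, a log2 CPM of -3.09 that 4537 genes share, so no member was lost to a low level. The table compares cells of the mouse cortex that received a plasmid for an shRNA against Nat14 (shNat14, 3 libraries) with cells that received a control shRNA (NTC, 3 libraries). Plasmids were injected into the lateral ventricle at embryonic day 14.5 and electroporated, cortices were dissected at embryonic day 18.5, and FACS collected the live cells that were GFP positive. The labels name no mouse strain. Nor do they tie a library to its own embryo or litter, and the p-values then reflect the spread of these libraries alone, which may be technical.

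The choroid plexus is a folded epithelium inside the brain ventricles that secretes cerebrospinal fluid. It grows from the dorsal midline next to the cortex, carries water and ions from blood to ventricle, and releases carrier proteins and growth factors into the fluid. The plexus of the lateral ventricle lies beside the cortical wall that an injection into this ventricle reaches, and the labels name a dissection of the cortical region without mention of the plexus. In bulk libraries, fewer cells of a type and less RNA per cell cannot be told apart.

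The authors' deposited table gives 1 fold change, 1 mean level and 1 p-value per gene, and no value for a single library. Whether the groups overlap for any gene can therefore not be said, and no SD is given. Fold changes are shNat14 relative to NTC, a direction that was read from the target itself, since the authors' deposited table lists Nat14 at a log2 fold change of -3.31 (adjusted p = 1.2e-08). Levels are the authors' mean over all libraries, in CPM, reads counted for a gene relative to all counted reads, where a sum is approximately a share of counted reads. The lowest level, 0.117 CPM, is shared by 4537 genes, so levels near it may hold an offset beside reads. Single genes are ordered by level only after division by exon length. In GENCODE M21, genes on the opposite strand overlap Folr1, Enpp2, F5 and Otx2, and genes on the same strand overlap Clic6, Prlr, F5 and Otx2, so reads of these members may be shared, as no source used here states how strand was counted. Markers of the labelled tissue were present, as the 12 genes of the excitatory neuron list were all above 1 CPM and summed to 6154 CPM. Among them Tubb3, Dcx, Mapt and Stmn2 are shared by neurons of other kinds. The 10 choroid plexus genes summed to 454 CPM.

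Among these 10 genes the authors' deposited table holds no call (adjusted p under 0.05), beside 0.155% of all genes called, and each of the 10 had an adjusted p of 1. No member had an unadjusted p under 0.05 either, a mark that 6.35% of the 17400 genes above the lowest level passed. The deposited fold changes were above 0 for 8 of the 10 genes and below 0 for Otx2 and Prlr. Of the 17400 genes above the lowest level, 50.3% had a fold change above 0. The median of the 10 was 0.91 on the log2 scale, and the median of all genes above the lowest level was 0.00. A log2 fold change above 1 was deposited for 4 of the 10, Ttr, Aqp1, Slc4a5 and F5, and for 9.08% of the same 17400 genes. Unadjusted p ranged from 0.065 for Ttr to 0.878 for Clic6, with a median of 0.448.

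**Figure D1:**
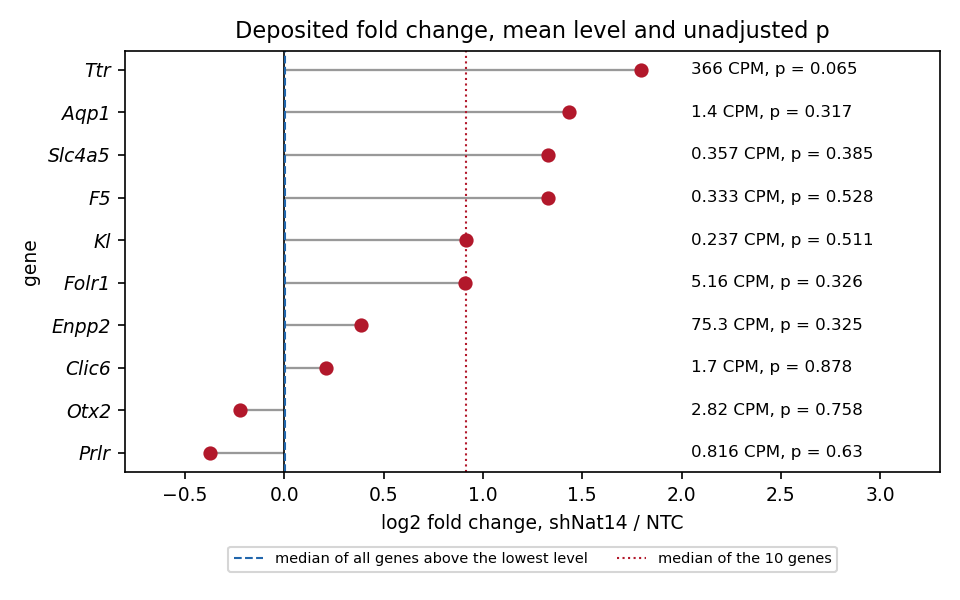
Log2 fold change of shNat14 over NTC (x axis) for each of the 10 choroid plexus genes (y axis), from the authors' deposited table, with the mean level and the unadjusted p printed at the right; points are single deposited values without error. Ttr is highest at 1.80 and Prlr lowest at -0.38, the dotted line is the median of the 10 genes (0.91), and the dashed line is the median of all genes above the lowest level.

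The levels of the 10 genes spanned a wide range, and 1 gene held most of the counted reads. Reads of Ttr made up 80.6% of the summed mean CPM of the 10 genes, without regard to length, and those of Ttr with Enpp2 97.2%. The other 8 genes summed to 12.8 CPM. Per kilobase of exon, the order of mean level was Ttr (309 CPM per kb), Enpp2 (13.03), Folr1 (2.25), Otx2 (0.669), Aqp1 (0.534), Clic6 (0.435), Slc4a5 (0.0615), Prlr (0.0532), F5 (0.0448) and Kl (0.0254). Without values per library it cannot be said which neighbours in this order differ beyond their spread. The lowest level of 0.117 CPM was not subtracted, and the order of neighbours below 1 CPM, such as Slc4a5 and Prlr, could change with it. Exon lengths are the union of all annotated exons, which can exceed the form that is expressed. Spearman's rho between log2 fold change and mean log2 CPM was -0.02 over the 10 genes, and 0.14 with the level per kilobase, both as descriptions of genes that share the same libraries.

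**Figure D2:**
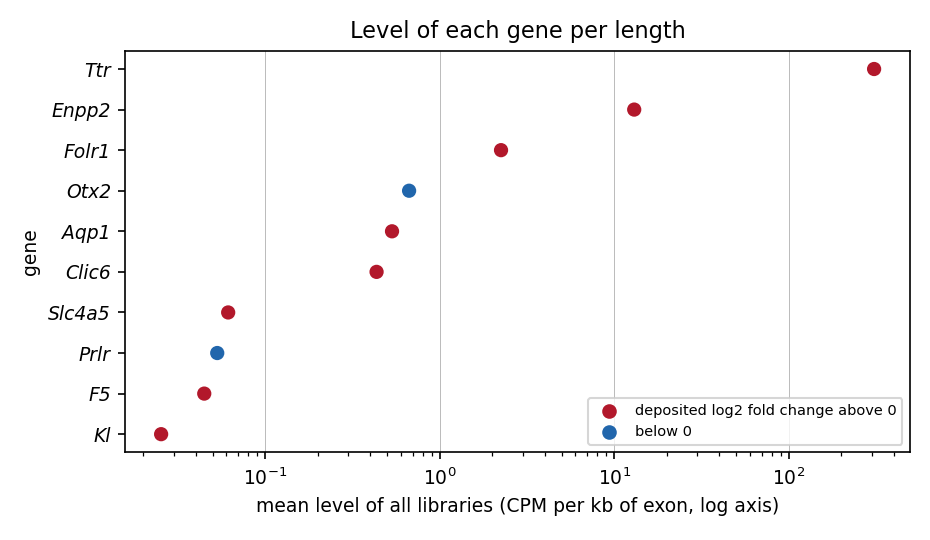
Mean level over all libraries (x axis, CPM per kb of exon, log axis) for each of the 10 genes (y axis), coloured by the sign of the deposited log2 fold change. Ttr lies at 309 CPM per kb and Kl at 0.0254, and the genes with a fold change below 0, Otx2 and Prlr, lie within the range of the others.

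Of the secreted proteins, Ttr encodes transthyretin, the carrier of thyroid hormone and of the retinol-binding protein in cerebrospinal fluid. Its mean level was 366 CPM and its log2 fold change 1.80 in the authors' deposited table (unadjusted p = 0.065). If both groups weigh equally in the mean and the fold is the ratio of group means, that is 164 CPM in NTC and 568 CPM in shNat14, values that are arithmetic and come with no error. The 17400 genes above the lowest level were ranked by mean level into 10 bins of equal size. Ttr lies in the highest bin, where the median absolute log2 fold change was 0.22 and the 90th percentile 0.55. Among the 1740 genes of this bin, Ttr ranked number 2 by absolute fold change, after Xist, the RNA of the inactive X chromosome. Xist had a log2 fold change of 5.12 and was called in the authors' deposited table (adjusted p = 0.0112). The labels do not give the sex of the embryos, and the part of sex in the values of the 10 genes was not tested. By unadjusted p Ttr ranked number 168 of the same 1740 genes. The fold of Ttr was thus further out for its level than its p-value was, and the table does not give the spread between libraries behind that p.

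Genes that act with transthyretin stood on both sides of 0. Of 14 genes of thyroid hormone and retinol handling, none was called, 6 were above 0, 6 below 0 and 2 at 0, with a median log2 fold change of 0. The 2 at 0, Dio1 and Dio3, lay near the lowest level. With at least 1 CPM required, 5 of 11 were above 0, with a median of -0.19. The smallest p-values in this list of the authors' deposited table belonged to Crym, a cytosolic thyroid hormone binder (-1.50, unadjusted p = 0.0234), and Stra6, the membrane receptor for retinol-binding protein (-1.20, unadjusted p = 0.0678).

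Enpp2 encodes autotaxin, a secreted enzyme that makes lysophosphatidic acid, and is made by several other cell types beside the choroid plexus. At a mean of 75.3 CPM it was the other abundant member, and its log2 fold change was 0.38 in the authors' deposited table (unadjusted p = 0.325). The 90th percentile of absolute fold change in its level bin was 0.53. Without Ttr, the other 9 genes summed by the same arithmetic to 75.7 CPM in NTC and 100.5 CPM in shNat14, most of it Enpp2. Of 12 measured genes of lysophosphatidic acid signalling, 7 were above 0 and none was called. The receptor Lpar1 stood at 0.46 in the authors' deposited table (unadjusted p = 0.311), and the lipid phosphatase Ppap2c had the smallest p of the list (-1.22, unadjusted p = 0.113).

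F5 encodes coagulation factor V, a cofactor of thrombin formation that is best known from liver and is also transcribed in the choroid plexus. The authors' deposited table lists it at a log2 fold change of 1.33, a mean of 0.333 CPM and an unadjusted p of 0.528. At that level the median absolute fold change of all genes was 1.20, and a fitted fold depends on the prior count. Of 11 other coagulation genes above the lowest level, 5 were above 0 and none was called. F8, the closest relative of factor V in the cascade, stood at -2.57 at a mean of 1.01 CPM in the authors' deposited table (unadjusted p = 0.0235).

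Among the genes of water and ion transport, Aqp1 encodes the water channel of the apical membrane of the choroid plexus. Aqp1 had the largest deposited fold change of the 6 members for which a RefSeq promoter was at hand (Aqp1, F5, Kl, Slc4a5, Otx2 and Prlr), and its promoter is shown for that reason. The window runs from 250 bases before to 50 bases after the annotated start, at chr6:55336049-55336348 on the plus strand of GRCm38.p6.
Aqp1 promoter: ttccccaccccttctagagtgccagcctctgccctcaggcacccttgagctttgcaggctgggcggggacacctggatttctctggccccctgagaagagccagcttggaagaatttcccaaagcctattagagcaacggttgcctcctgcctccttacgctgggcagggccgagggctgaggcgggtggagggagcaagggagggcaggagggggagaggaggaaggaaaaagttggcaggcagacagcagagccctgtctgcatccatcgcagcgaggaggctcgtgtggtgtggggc
All letters are in lower case because this window lacks the 6-base word TAATCC, a core site of Otx-class homeodomains, on both strands. The log2 fold change of Aqp1 was 1.43 at a mean of 1.40 CPM in the authors' deposited table (unadjusted p = 0.317). This lay below the 90th percentile of absolute fold change in its level bin, 2.06. Of 9 other aquaporin genes above the lowest level, 3 were above 0 and none was called, and the astrocyte water channel Aqp4 stood at -0.68 in the authors' deposited table (unadjusted p = 0.0916).

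Slc4a5 encodes a sodium bicarbonate cotransporter of the choroid plexus that takes part in fluid secretion. In the authors' deposited table it had a log2 fold change of 1.33 at 0.357 CPM (unadjusted p = 0.385). Its value was close to the median absolute fold change of its level bin, 1.20. Of 8 other genes of the Slc4 bicarbonate transporter family above the lowest level, 3 were above 0 and none was called. The 3 were Slc4a2, Slc4a10 and Slc4a7, at 0.71, 0.46 and 0.33 in the authors' deposited table. Clic6, a member of the chloride intracellular channel family that is enriched in this epithelium, stood at 0.21 with a mean of 1.70 CPM in the authors' deposited table (unadjusted p = 0.878). Among its 4 relatives the abundant Clic4 stood at -0.27 in the authors' deposited table (unadjusted p = 0.374), 1 was above 0 and none was called.

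The receptors of the list differed in sign. Folr1 encodes folate receptor alpha, which carries folate across the choroid plexus into the ventricle. Its log2 fold change was 0.91 at a mean of 5.16 CPM in the authors' deposited table (unadjusted p = 0.326), just under the 90th percentile of its level bin, 0.95. Of 15 other genes of folate handling, 5 were above 0, none had an unadjusted p under 0.05 and none was called. Shmt2, a mitochondrial enzyme of folate metabolism, stood at -0.62 at 49.9 CPM in the authors' deposited table (unadjusted p = 0.179). Kl encodes klotho, the co-receptor for an endocrine fibroblast growth factor. Kl had the same log2 fold change as Folr1 after rounding, 0.91, but at 0.237 CPM in the authors' deposited table (unadjusted p = 0.511), and it was the lowest of the 10 genes per kilobase. Of 10 klotho partners above the lowest level, 3 were above 0 and none was called, and Adam10, a protease that sheds klotho, stood at 0.57 in the authors' deposited table (unadjusted p = 0.0738).

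Prlr encodes the prolactin receptor, which is abundant in the choroid plexus of adult rodents. It had the lowest log2 fold change of the 10, -0.38 at a mean of 0.816 CPM in the authors' deposited table (unadjusted p = 0.63). Of 9 other genes of prolactin signalling above the lowest level, 3 were above 0 and none was called. Its kinase Jak2 stood at 0.41 in the authors' deposited table (unadjusted p = 0.214).

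Otx2 encodes the homeodomain transcription factor required for choroid plexus formation, and it is also a regulator of forebrain and midbrain patterning. Of the 4 annotated promoter windows of Otx2, 1 holds the word TAATCC (read as GGATTA on the strand shown), and it is printed with that word in capitals. It lies at chr14:48665060-48665359 on the minus strand of GRCm38.p6, and the word covers bases 40 to 45 of the window.
Otx2 promoter: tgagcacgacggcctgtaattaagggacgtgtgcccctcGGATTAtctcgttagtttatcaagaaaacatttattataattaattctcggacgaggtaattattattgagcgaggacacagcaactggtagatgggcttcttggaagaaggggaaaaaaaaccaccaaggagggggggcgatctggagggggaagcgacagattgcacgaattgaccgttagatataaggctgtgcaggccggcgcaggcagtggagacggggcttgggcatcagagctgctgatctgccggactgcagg
Of all 32851 windows of this length in the RefSeq table, 7.06% hold the word on either strand. It was found in 1 of the 11 windows of the 6 members, and such a match is a description of letters, not a binding site. The log2 fold change of Otx2 was -0.22 at a mean of 2.82 CPM in the authors' deposited table (unadjusted p = 0.758). Its antisense neighbour Otx2os1, from which its reads cannot be told apart unless counting used strand, was at -1.69 log2 CPM with a log2 fold change of 0.10. None of 10 other Otx-class and anterior homeobox genes was called, and the authors' deposited table lists the cortical factors Emx2 and Lhx2 at 0.48 and 0.23 (unadjusted p = 0.249 and 0.438).

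Set against genes of like level, 1 of the 10 members, Ttr, lay past the 90th percentile of absolute fold change in its level bin, and 6 of the 10 lay past the median. Fold changes above 1 at low level were common in the table. In the bin that holds Slc4a5, F5 and Kl, the median absolute log2 fold change was 1.20 and the 90th percentile 4.94, so the size of these 3 values is ordinary for their level.

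**Figure D3:**
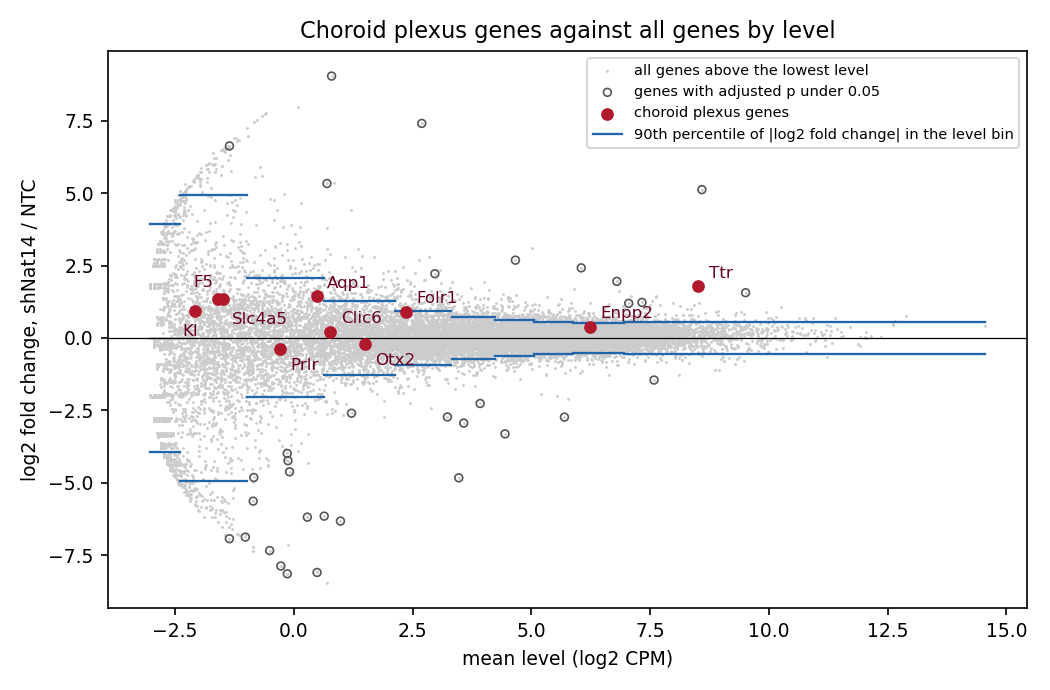
Log2 fold change of shNat14 over NTC (y axis) against mean level in log2 CPM (x axis) for the 17400 genes above the lowest level (grey), called genes (open circles) and the 10 choroid plexus genes (red), from the authors' deposited table. Blue lines mark the 90th percentile of absolute fold change in each of 10 level bins, and of the red points Ttr alone, at 1.80, lies outside them.

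In a wider set of choroid plexus genes, values above and below 0 were about even when genes of every level above the lowest were counted. Of 72 other genes known from this epithelium or its precursors that lay above the lowest level, 38 (52.8%) were above 0 and none was called, with a median log2 fold change of 0.05. The set was not limited to genes particular to the plexus. Reads of abundant ones, such as Cst3 (585 CPM) and Slc31a1 (178 CPM), may come from other cortical cells. With a mean level of at least 1 CPM required, 34 of 52 were above 0, with a median of 0.27. Unadjusted p was under 0.05 for 3 higher and 5 lower genes of the 72, beside 3.51% and 2.84% of all genes above the lowest level. Other secreted proteins had a median of 0.41 with 10 of 14 above 0, and other ion and solute transporters a median of -0.02 with 11 of 24 above 0. Transcription factors of the choroid plexus and dorsal midline had 8 of 14 above 0, receptors 3 of 8, and epithelial and junction genes 6 of 12.

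Single genes of these lists stood on either side of 0. Kcnj13 and Kcne2, potassium channel genes of the choroid plexus, are listed at 1.16 and 1.85 in the authors' deposited table (unadjusted p = 0.199 and 0.144). Trpm3, a cation channel gene that is strong in the plexus, stood at 1.20 (unadjusted p = 0.0523) and the collagen gene Col9a3 at 0.80 (unadjusted p = 0.0222) in the authors' deposited table. Cp, the copper carrier ceruloplasmin, stood at -1.76 in the authors' deposited table (adjusted p = 0.152). Slco1a5, an organic anion transporter, stood at -7.93 at 0.86 CPM (adjusted p = 0.127), a fitted size that depends on the prior count, while its close paralog Slco1a4, an endothelial gene, stood at 3.19 in the authors' deposited table. Reads shared between these similar genes would make both values uncertain.

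Several further lists of cell type markers also had values mostly on 1 side of 0, and no gene in them was called. Multiciliated and ependymal genes were not chosen to be absent from the choroid plexus epithelium, and Foxj1 is also in the list of choroid plexus transcription factors. This list had 15 of 18 above 0, a median log2 fold change of 1.04 and a summed mean level of 160 CPM. It therefore does not separate ependymal cells from the plexus. Of these 18, 6 had an unadjusted p under 0.05, all higher. Of all genes above the lowest level, 3.51% had such a p and a higher value. Dynlrb2, a dynein light chain of this list, stood at 1.48 in the authors' deposited table (unadjusted p = 0.0174). Endothelial and mural genes had 11 of 12 above 0, a median of 1.19 and a sum of 67.7 CPM, and 3 of the 12 had an unadjusted p under 0.05, all higher. Microglia and macrophage genes had 2 of 15 above 0, a median of -0.95 and a sum of 108 CPM. Of the 15, 6 had an unadjusted p under 0.05, all lower, beside 2.84% of all genes above the lowest level. Meningeal fibroblast genes had 4 of 12 above 0 and a median of -0.51, and erythroid genes 2 of 7 and -1.11, each with 2 genes at an unadjusted p under 0.05, all lower. Astrocyte and radial glia genes, at a sum of 4520 CPM, had 2 of 12 above 0 and a median of -0.37, with 4 of the 12 below 0 at an unadjusted p under 0.05. The cortical excitatory neuron genes had 5 of 12 above 0, a median of -0.08 and none at such a p. All genes of the multiciliated, endothelial, microglia and meningeal lists lay above the lowest level, while 3 of the 10 matched erythroid genes, adult globins, lay at it. The summed level of each list in each group is not in the table, and the part of these cells in the values of the 10 genes was not tested.

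**Figure D4:**
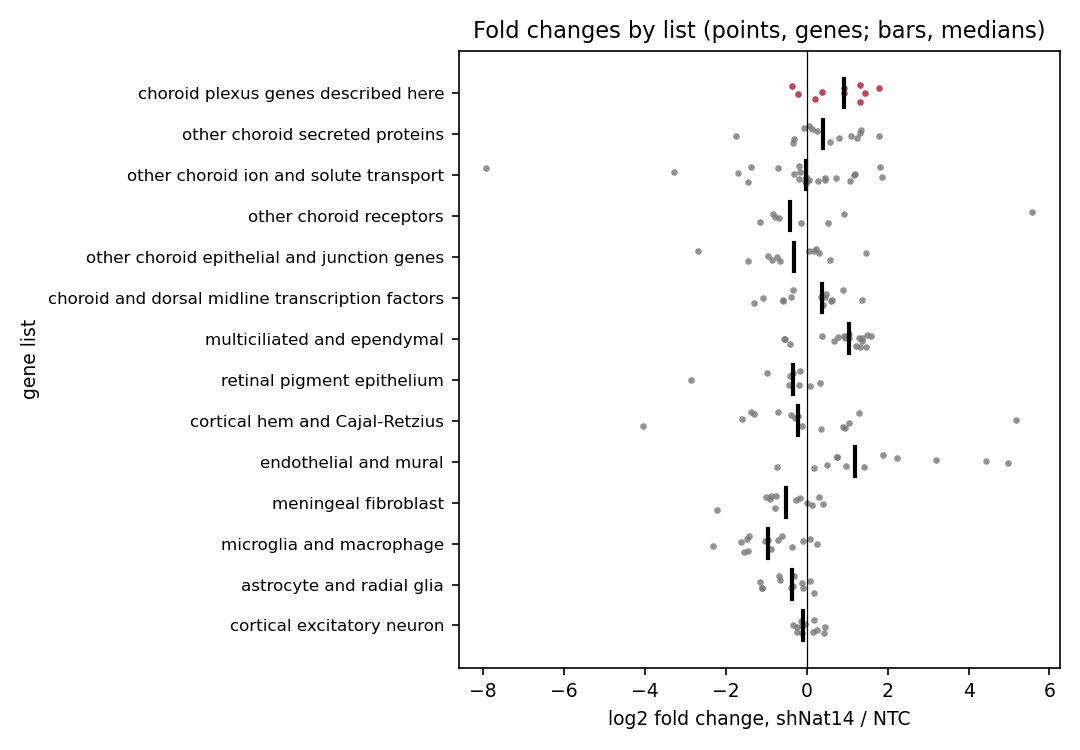
Log2 fold change of shNat14 over NTC (x axis) for genes of 14 lists (y axis), from the authors' deposited table; each point is a gene above the lowest level and each bar the median of its list. The bar of the 10 choroid plexus genes (red points) lies at 0.91, between those of the multiciliated list (1.04) and of the other choroid secreted proteins (0.41).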

How the data were processed

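Cortical cells of mouse embryos were profiled by RNA sequencing in 6 libraries, 3 labelled shNat14 and 3 labelled NTC, grouped by their titles. The file used is a table of the authors' own comparison, deposited with 4 values for each gene symbol, which per the file headers are the log2 fold change, the log2 CPM as a mean level, the p-value and the adjusted p-value. Tools listed in the submitters' processing notes, without their roles, are DESeq, HTSeq 0.5.4p1, TopHat2 2.0.8 and SAMtools 0.1.19, and the build is hg19, a human one, although the symbols are those of mouse. The authors' annotation, filters and prior count are also not given in these sources. Since the depth of the libraries is unknown, intervals and detection limits are left out.

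The 10 genes, and 24 lists of related genes with 303 entries, were chosen with earlier results of these data known. Of the entries, 10 were matched by an older symbol from RefSeq (GRCm38.p6) and 3 were not matched. All 10 genes are named, each list is given by counts and up to 3 genes of smallest p, and genes of the choroid plexus lists above 10 CPM could also be named. Kcnj13 and Kcne2 were named after their values were seen. The values of 1 list gene are not reported here. Calls are the authors' adjusted p under 0.05. Benjamini-Hochberg adjustment of the deposited p-values over the 21937 rows gave the deposited adjusted p to within 4.1e-05, and the same function was tested on simulated data. The 4537 genes at the lowest mean level were left out of list counts, and the other 17400 were ranked by mean level into 10 bins of equal size. Exon lengths came from GENCODE M21 (GRCm38). No model could be refitted and no library left out, since the table gives no values per library. Computations used Python 3.11.15, numpy 2.4.6, pandas 2.3.3 and matplotlib 3.10.9. Alternatives tried were other thresholds, adjustments over fewer genes, level filters, re-centred fold changes and leaving out each gene in turn.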

Additional observations from a re-analysis of the deposited data

How the results depend on the processing

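The count of 0 called genes among the 10 was the same at adjusted p under 0.1, at unadjusted p under 0.05 and after adjustment over fewer genes. The smallest adjusted p of a member was 0.826 over the 17400 genes above the lowest level and 0.869 over the 10969 genes from the median level upward, which hold 3 of the 10. The median log2 fold change of 0.91 was 0.65 over the 6 members of at least 1 CPM, 1.09 over the 2 of at least 10 CPM, and 0.88 after re-centring on genes of at least 10 CPM. Leaving out each member in turn gave 0.91 throughout, and could give no other value. The middle values of the 10, those of Folr1 and Kl, are both 0.91 after rounding. Of the 6 members of at least 1 CPM, 5 were above 0, because fewer genes enter. Re-centring left the sign of all 10 genes as it was, since its shifts (0.003 and 0.04) were smaller in size than every member's value. No paired analysis was possible because single libraries have no values in the table, and leaving out single libraries was impossible for the same reason. The depth of each library, which limits what can be said of the 4 members below 1 CPM, is unknown.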

Other observations

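Tissues that share genes with the choroid plexus or adjoin it were also examined. Of 9 retinal pigment epithelium genes above the lowest level, an epithelium that shares Ttr and Otx2 with the choroid plexus, 2 had a log2 fold change above 0, the median was -0.33 and none was called. The defining enzyme Rpe65 sat at the lowest mean level of the authors' deposited table. Of 15 genes of the cortical hem, the midline tissue beside the plexus, and of the Cajal-Retzius cells it gives rise to, 6 were above 0, with a median of -0.21 and no call. Nhlh2, a transcription factor of Cajal-Retzius cells, had the smallest p of that list at 0.94 (unadjusted p = 0.0694) in the authors' deposited table. Rlbp1, a retinaldehyde carrier, had the smallest p of the pigment epithelium list, at -0.44 in the authors' deposited table.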
